A study of Glycyrrhiza uralensis with 48 samples.

Results

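The 100 genes described here stood higher under drought, under salt and under both together than in unstressed controls, in aerial and in underground parts of licorice (Glycyrrhiza uralensis) seedlings grown without silicate. They were chosen by a level rule among 38463 rows of the expression table. For each gene the mean log2(FPKM + 1) of the 3 control libraries of a plant part was subtracted from that of the 3 libraries of each stress, which gave 6 changes. FPKM is a count of fragments per gene divided by transcript length and library depth. In 200 genes all 6 changes were at least 0.4 on the log2 scale, and the 100 with the largest smallest change were taken. By the mirror rule, 351 genes fell by at least 0.4 in all 6.

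The study measured RNA of 45-day-old seedlings in 48 libraries, 3 for each of 16 groups. Aerial and underground parts were collected separately from seedlings under drought (35 to 45% of saturation moisture), under 75 mM NaCl (salt), under both (salt-drought), and under a distilled-water control. Each condition was grown with 2 mM silicon, supplied as potassium silicate, and without it, all in sterilised desert sand that held no nutrients. The plants were one species with no named genotype, and a sample is a whole aerial or underground part, which mixes many cell types. In such material a change in how many cells of a type are present and a change in RNA per cell cannot be told apart. The labels do not state whether the 3 libraries of a group were grown apart, and p-values therefore cover only the spread among the libraries at hand, which may be technical.

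Drought and salt both make water harder to take up, and salt adds sodium and chloride that are toxic inside cells. In plants generally, both raise the hormone abscisic acid, and its signalling turns on genes for osmolyte synthesis, protective late-embryogenesis proteins, ion transport and detoxification. Roots meet the dry or salty medium directly, while leaves meet it through the water supply and stomatal closure. Licorice is a legume of dry and saline ground whose underground parts hold the sweet saponin glycyrrhizin. Silicate is taken up as silicic acid and is known in many plants as a treatment that eases drought and salt injury. The deposited files do not pair identifiers with gene names or functions, so no role can be given to any of the 100 genes, and at most 2 genes that rose and 2 that fell are named per comparison.

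Library depth, read from the spacing of low FPKM values, came to a rough 14.98 to 33.65 M fragments. This rests on taking the strongest spacing as a fraction of a fragment, which was not tested. Tissue identity was described with genes that mark one part in the controls without silicate, 7 underground and 4 aerial genes that are not among the 100. Aerial libraries held the 7 underground markers at a median of at most 0.224% of their underground control level, except the 3 libraries of salt-drought with silicate (1.09, 13.4 and 1.71%) and library 3 of drought without silicate (8.499%). Underground libraries held the 4 aerial markers at 0.0126 to 4.70% of their aerial control level, with the highest value in library 2 of salt-drought without silicate. What these traces of the other part contribute to the values below was not tested. Without library 3 of aerial drought, 91 of the 100 genes still had a smallest change of at least 0.4. Without library 2 of underground salt-drought 96 did.

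In the libraries that chose them, the 100 genes had a median change of 1.06 under drought, 1.20 under salt and 1.33 under salt-drought in aerial parts, on the log2(FPKM + 1) scale. In underground parts the medians were 0.90, 1.07 and 1.26. Of all 38463 rows, 10.6, 7.66 and 11.5% changed by at least 0.4 under aerial drought, salt and salt-drought, and 8.4, 12.7 and 16.9% did so underground. These values are the rule itself and support nothing. Within the rule, the combined stress gave the largest of the 3 changes for 58 genes in aerial parts and for 53 underground. Drought gave the largest for 13 genes in aerial parts and for 16 underground, so the order of the medians was not shared by every gene.

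The 2 genes at the head of the rule differ in how many zeros they hold. Glyur001184s00030528, at 47219 to 48034 on the minus strand of Scaffold01184 with a single exon, had a smallest change of 2.00. In aerial parts it was at 161, 110 and 88.7 FPKM under drought, 83.3, 122 and 172 FPKM under salt and 67.0, 85.0 and 83.4 FPKM under salt-drought, against 21.1, 16.3 and 17.6 FPKM in controls. Underground it was at 15.04, 23.7 and 20.2 FPKM under drought, 8.86, 14.9 and 18.2 FPKM under salt and 25.6, 9.47 and 15.7 FPKM under salt-drought, against 3.46, 1.86 and 2.67 FPKM in controls. These values are a description, since the same libraries ranked the gene. Glyur000028s00003543, on Scaffold00028, had a smallest change of 1.62 but is listed at 0 in 11 of the 48 libraries. Its values above 0 lay between 16.1 and 47.1 FPKM, and it was listed at 0 in 3 of the 6 controls. An exact 0 beside such values can be a failed estimate, so the place of this gene in the rule rests on zeros. It has 186 nt of exon and overlaps another annotated gene.

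At the other end, newGene_1763 (a row labelled as a new gene, with no coordinates) and Glyur000118s00009650 were the last genes taken, with smallest changes of 0.520 and 0.519. Glyur003559s00047290 and Glyur000061s00006576 were the first left out, both with a smallest change of 0.519. The boundary therefore separates genes with nearly equal values. The boundary was not drawn again under other settings. There a gene counted as kept if its smallest change was still at least 0.4, without a new ranking. By that count all 100 genes were kept after rescaling the libraries to a common median ratio and with a pseudocount of 0.1. When 1 library without silicate was left out 86 to 100 were kept, with the fewest without library 1 of the aerial controls.

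The 100 genes span a wide range of abundance. Their mean over the 24 libraries without silicate ran from 1.08 to 291 FPKM with a median of 18.6 FPKM, and 11 genes were at 100 FPKM or above. In 83 genes all 48 libraries were above 0. The other 17 were listed at 0 in at least 1 library, and 15 of these were at 0 in a control without silicate, where a 0 enlarges all 3 changes of that part.

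Of the 100 genes, 96 are in the deposited annotation, on 90 scaffolds, and 4 are new-gene rows. Their exons summed to a median of 796 nt, against 1345 nt for the 24390 annotated genes with at least 1 FPKM in 3 libraries. The median number of exons was 2, against 4. Of the 96 genes, 29 had a single exon (30.2%), against 15.2% of the expressed genes. The 100 genes were therefore shorter and had fewer exons than expressed genes at large, as a description with no test. Another annotated gene, on the opposite strand, overlapped 17 of the 96 (17.7%), against 23.0%. Overlap was taken from gene start and end, introns included, and overlap of exons was not computed. Where exons overlap, reads of the neighbours cannot be told apart without strand. Strand handling is not given in the sources used here.

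One adjacent pair was found. Glyur000445s00019997 (Scaffold00445, 16402 to 19161, plus strand) and Glyur000445s00019998 (17229 to 19313, minus strand) overlap on opposite strands. The first was at 118 to 171 FPKM in the silicate-fed aerial libraries and the second at 2.89 to 4.90 FPKM. With no strand information, their shared direction cannot be counted as separate. In all, 6 pairs shared a scaffold, among them Glyur001184s00030528 with Glyur001184s00030532, which have 2 genes between them. How many pairs other expressed genes would form was not computed.

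**Figure D1:**
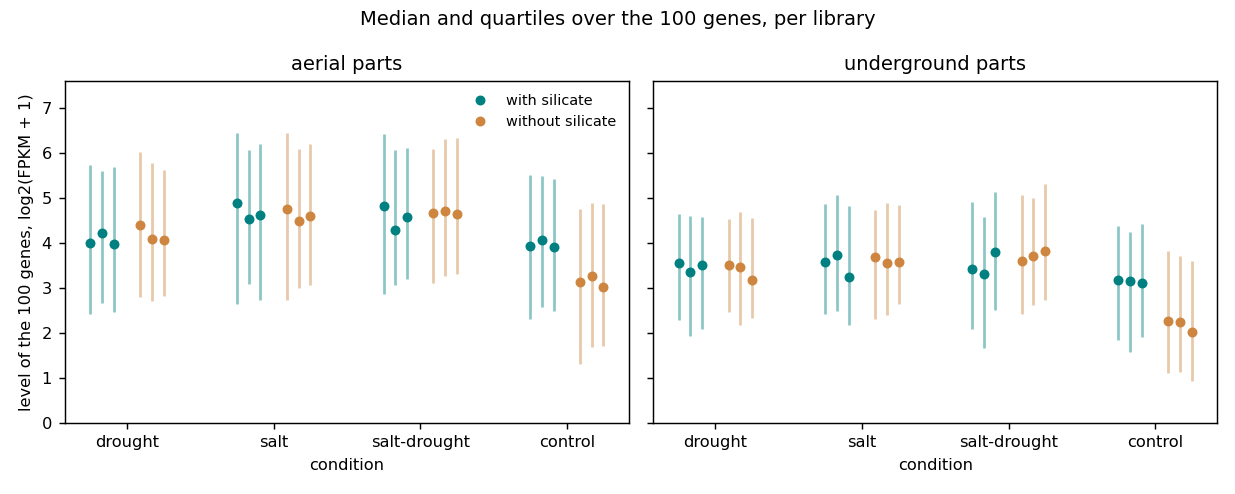
Level of the 100 genes in every library, as log2(FPKM + 1), for aerial (left) and underground parts (right) under drought, salt, salt-drought and control. Each point is the median over the 100 genes in 1 library and each line spans the quartiles, with silicate in teal and without in brown. The 3 aerial controls with silicate lie at 3.91 to 4.06, above the 3 without at 3.02 to 3.25. Stressed libraries with and without silicate lie closer together than the controls do.

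Silicate-fed controls held the 100 genes at a level between stress and the controls without silicate. The median level over the genes was 3.91 in aerial silicate-fed controls, against 2.99 in aerial controls without silicate, on the log2(FPKM + 1) scale. Underground the medians were 3.07 in silicate-fed controls, against 2.17 in controls without it. In each part 95 of the 100 genes had a higher mean in silicate-fed controls, with a median difference of 0.68 in aerial and 0.56 in underground parts. All 3 silicate-fed controls lay above all 3 others for 52 genes in aerial parts, where 7.22% of the genes tested did so, and for 40 genes underground, where 12.2% did. The controls without silicate were used to choose the genes, and a gene that happened to be low there entered more easily. These differences are therefore described and not tested.

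Under stress the median difference between libraries with and without silicate was smaller than in controls, and largest in underground salt-drought. Single genes differed by -3.25 to 2.43. The median difference, with minus without silicate, was -0.09 under drought, -0.03 under salt and -0.14 under salt-drought in aerial parts. Underground it was -0.05, -0.12 and -0.31. For underground salt-drought 81 of the 100 genes were lower with silicate, and in the other 5 stress groups between 51 and 62 were lower. The stressed libraries without silicate also chose the genes, so these values are a description as well.

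Whether the same 100 genes differed between stress and control was tested in the silicate-fed libraries, which the rule did not use. Each test was a limma fit on log2(FPKM + 1) over all genes that reached 1 FPKM in 3 or more of the fitted libraries, 22026 aerial and 23213 underground genes. A gene was called at a Benjamini-Hochberg adjusted p under 0.05. All 100 genes passed the filter in aerial parts. Underground 99 did, and Glyur000265s00020624 was at 0.911 FPKM or lower in every silicate-fed underground library. The 6 comparisons share controls within a part, so their counts are set side by side and are not independent.

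**Figure D2:**
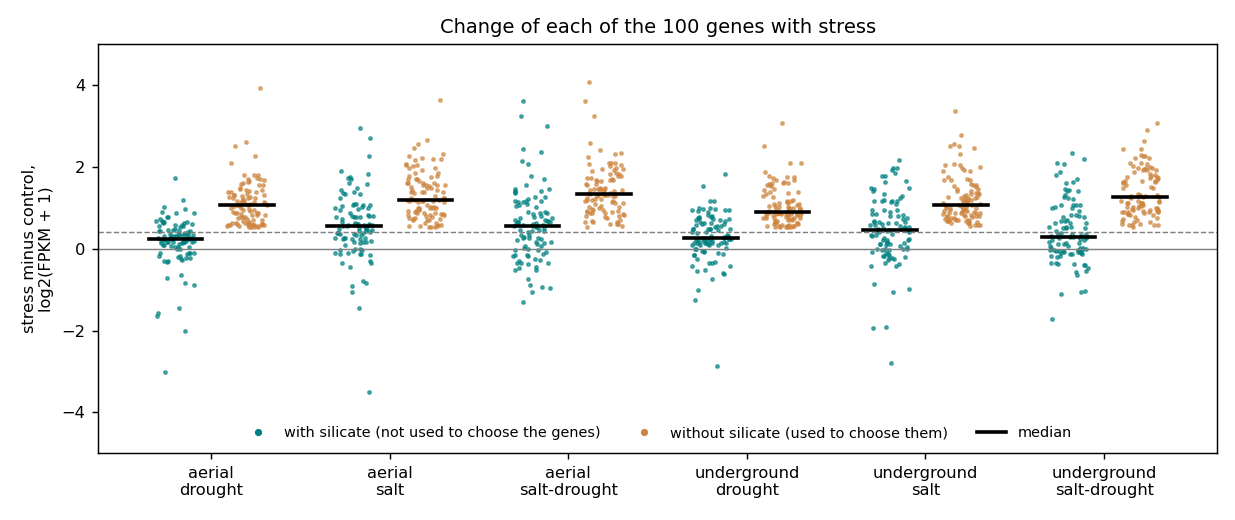
Change of each of the 100 genes with stress, as stress minus control in log2(FPKM + 1), in silicate-fed seedlings (teal, not used to choose the genes) and in seedlings without silicate (brown, used to choose them). Each point is a gene and each black bar a median, and the dashed line marks the rule's 0.4. Brown points lie above the line by construction, while the teal medians lie between 0.23 and 0.55.

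Under salt-drought with silicate, aerial parts called 36 of the 100 genes higher than silicate-fed controls and none lower. Over all genes tested 5.85% were called higher and 7.16% lower. The median change of the 100 genes was 0.55 on the log2 scale, against 0.03 for all genes tested, and 59 changed by at least 0.4, as 16.3% of all genes did. The count was 26 to 33 when 1 library was left out. In those fits 689 to 1155 of all 22026 genes were called higher, against 1288 in the main fit. The rise was not uniform, since 25 of the 100 genes had a change below 0. Of the 36, 10 were genes called higher underground than aerial in silicate-fed controls, 19 were called lower underground, and 7 were not called between the parts. The 7 underground markers summed to 804 to 9378 FPKM in these 3 libraries, against 16.0 to 108 FPKM in the aerial silicate-fed controls, and none was at 0. Without library 2, which held the most, 33 of the 100 genes and 764 of all genes tested were called higher. The libraries left held the markers at medians of 1.09 and 1.71% of their underground control level. The aerial silicate-fed controls held them at 0.173% or less. The part of that RNA in these counts was not tested.

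Under salt alone with silicate, aerial parts called 24 genes higher and 3 lower, against 2.02 and 2.35% of all genes tested. The median change was 0.54, and 58 genes changed by at least 0.4, as 11.4% of all genes did. This count depended on single libraries. It was 10 without library 1 and 13 without library 2 of the silicate-fed controls, and 13 without library 1 and 12 without library 3 of the salt group. In these fits 118, 180, 206 and 128 of all 22026 genes were called higher, against 446 in the main fit. The underground markers stayed at 1.39 to 14.8 FPKM in sum in these salt libraries, no higher than in the silicate-fed controls (16.0 to 108 FPKM).

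Under drought with silicate, aerial parts called 1 gene higher and none lower, against 0.00908 and 0.0136% of all genes tested. At an unadjusted p under 0.05, 19 of the 100 genes were higher and 3 lower, where 9.11% of all genes passed in either direction. The median change was 0.23, 74 genes had a change above 0, and 31 changed by at least 0.4, as 7.25% of all genes did. Few genes were called higher under drought in silicate-fed aerial parts, 1 of the 100 and 2 of all 22026 tested. By the unadjusted p and by the change of 0.4, the share among the 100 was above that of all genes.

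Underground parts under salt with silicate called 26 genes higher and none lower, against 8.1 and 7.97% of all genes tested. The median change was 0.45, and 54 genes changed by at least 0.4, as 16.9% of all genes did. The count was 16 without library 2 of the silicate-fed controls and 17 without library 2 of the salt group. In these fits 802 and 971 of all 23213 genes were called higher, against 1880 in the main fit. The 4 aerial markers summed to 17.7 to 71.0 FPKM in the salt libraries, against 13.5 to 24.2 FPKM in the underground silicate-fed controls, and none was at 0. Of the 26 genes, 8 were called higher underground than aerial in silicate-fed controls and 12 lower. The part of these traces in the result was not tested.

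Underground salt-drought with silicate called 23 genes higher and none lower, against 4.77 and 8.37% of all genes tested. The median change was 0.29, and 43 genes changed by at least 0.4, as 13.1% of all genes did. The count was 13 without library 2 of the silicate-fed controls, 14 without library 1 and 13 without library 3 of the salt-drought group. In these fits 554, 690 and 863 of all 23213 genes were called higher, against 1108 in the main fit. The aerial markers summed to 0.462 to 165 FPKM in these libraries, and 1 marker was at 0 in library 2. Of the 23 genes, 10 were called lower underground than aerial in silicate-fed controls.

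Underground drought with silicate called 2 genes higher and none lower, against 0.0646 and 0.655% of all genes tested. At an unadjusted p under 0.05, 25 genes were higher and 2 lower, where 10.5% of all genes passed in either direction. The median change was 0.27, and 41 genes changed by at least 0.4, as 7.57% of all genes did. The aerial markers summed to 66.2 to 94.7 FPKM under drought, against 13.5 to 24.2 FPKM in silicate-fed controls, with none at 0, and their part in the result was not tested.

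**Figure D3:**
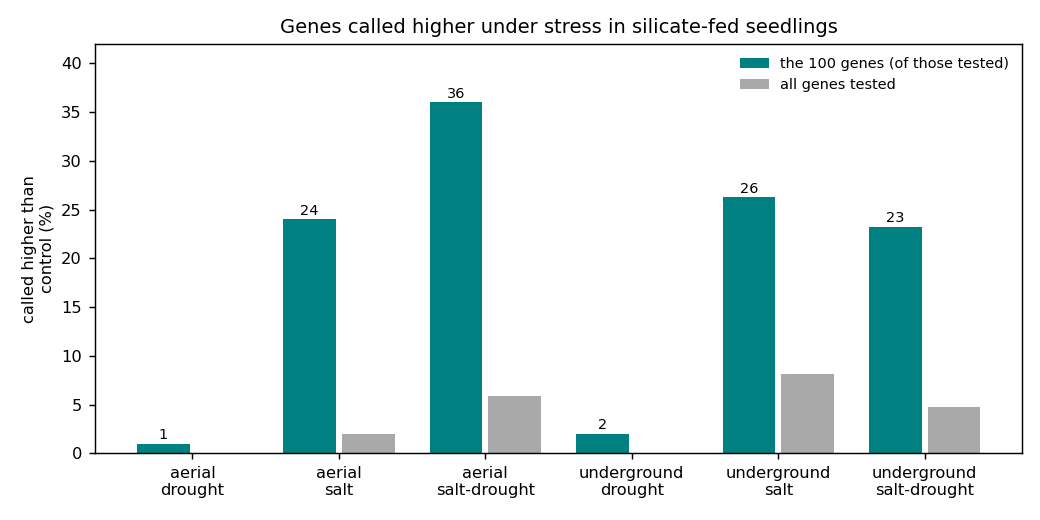
Share of genes called higher than silicate-fed controls (%) under drought, salt and salt-drought in aerial and underground parts. Teal bars are the 100 genes, as a share of those tested and with the number called above each bar, and grey bars are all genes tested. The teal bars reach 36% under aerial salt-drought, where the grey bar is at 5.85%, and stay near 0 for drought in both parts.

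Over the 3 stresses, 40 genes were called higher in at least 1 aerial comparison, against 6.52% of all genes tested, and 31 in at least 1 underground comparison, against 9.91%. These include 21 genes called in both parts, against 1.7% of the 20333 genes tested in both. In all, 50 of the 100 genes were called in either part, against 13.6% of the genes tested in either, and 50 were called in neither. Under salt, 12 genes were called higher in both parts, which is 50.0% of the aerial and 46.2% of the underground calls among the 100. Among the 20333 genes tested in both parts, 135 were called in both, 31.3% of the aerial and 7.99% of the underground calls within that set. Under salt-drought 17 genes were called in both parts, 47.2% of the aerial and 73.9% of the underground calls, against 18.8 and 24.4% for the genes tested in both parts. No gene was called in both parts under drought. Across the 100 genes, the silicate-fed underground and aerial changes had a Spearman rho of 0.31 under drought, 0.56 under salt and 0.60 under salt-drought. This describes genes measured in the same libraries, which are not independent replicates.

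Glyur000027s00001583, on the plus strand of Scaffold00027 at 466170 to 468439, had 4 exons and rose in aerial parts in all 3 stresses. In silicate-fed aerial parts it was at 24.2, 22.6 and 18.9 FPKM under drought, at 50.8, 55.7 and 49.3 FPKM under salt and at 89.7, 59.0 and 50.3 FPKM under salt-drought, against 4.64, 5.58 and 7.77 FPKM in controls. Every stressed aerial library lay above every control. By limma the log2 change was 1.73 under drought (SE 0.21, adjusted p = 0.0271), 2.94 under salt (SE 0.21, adjusted p = 0.000343) and 3.25 under salt-drought (SE 0.21, adjusted p = 7.28e-05). The drought call was lost without library 1 (adjusted p = 0.155) or 2 (0.0734) of the controls and without library 1 (0.0946) or 2 (0.103) of the drought group, by limma. With only the groups compared in the fit, with no filter and with the replicate number as a block, its adjusted p from limma was 0.151, 0.0533 and 0.0784.

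Underground, Glyur000027s00001583 started from a higher level. It was at 31.3, 27.9 and 24.4 FPKM under drought, 31.8, 38.3 and 25.9 FPKM under salt and 44.9, 41.9 and 55.1 FPKM under salt-drought, against 23.8, 18.6 and 11.1 FPKM in silicate-fed controls. All stressed values lay above all controls here too, by a smaller margin. The limma change was 0.86 under salt (adjusted p = 0.0327) and 1.41 under salt-drought (adjusted p = 0.00351). The underground salt call was lost in 7 of 12 alternative fits. Leaving out control library 2 gave a limma adjusted p of 0.0711, control library 3 gave 0.0737, salt library 1 gave 0.0859 and salt library 2 gave 0.110. It was 0.0505 with no filter, 0.0726 with the libraries without silicate added and 0.0871 with only the groups compared, by limma. The salt response was smaller underground than in aerial parts by 2.09 (SE 0.33, limma adjusted p = 0.00359), and the salt-drought response was smaller by 1.84 (SE 0.33, limma adjusted p = 0.00625). Without stress the gene was 1.39 higher underground (limma adjusted p = 3.89e-05), and under salt it was 0.70 lower there (limma adjusted p = 0.0144). That last call was lost without underground salt library 3 (limma adjusted p = 0.0714) and with the replicate block (0.0789).

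Glyur000595s00018298 (Scaffold00595, 35241 to 38683, plus strand, 2 exons) had the largest rise under aerial salt-drought. In silicate-fed aerial parts it was at 30.2, 21.2 and 21.8 FPKM under salt-drought, 13.1, 17.3 and 8.62 FPKM under salt and 3.01, 2.66 and 2.02 FPKM under drought, against 0.639, 1.24 and 1.42 FPKM in controls. The 4 conditions did not overlap in aerial parts. The limma change was 3.60 under salt-drought (SE 0.25, adjusted p = 7.28e-05) and 2.71 under salt (SE 0.25, adjusted p = 0.000572). Underground it was at 32.0, 25.8 and 45.8 FPKM under salt-drought and 35.9, 38.1 and 21.9 FPKM under salt, against 8.13, 4.93 and 9.10 FPKM in controls. The underground changes were 2.08 (SE 0.26) and 1.97 (SE 0.26), with limma adjusted p = 0.000716 and 0.00106. Its salt-drought response was smaller underground than in aerial parts by 1.52 (SE 0.37, limma adjusted p = 0.0290), a call that was lost in 8 of 18 alternative fits, with limma adjusted p-values up to 0.0701.

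**Figure D4:**
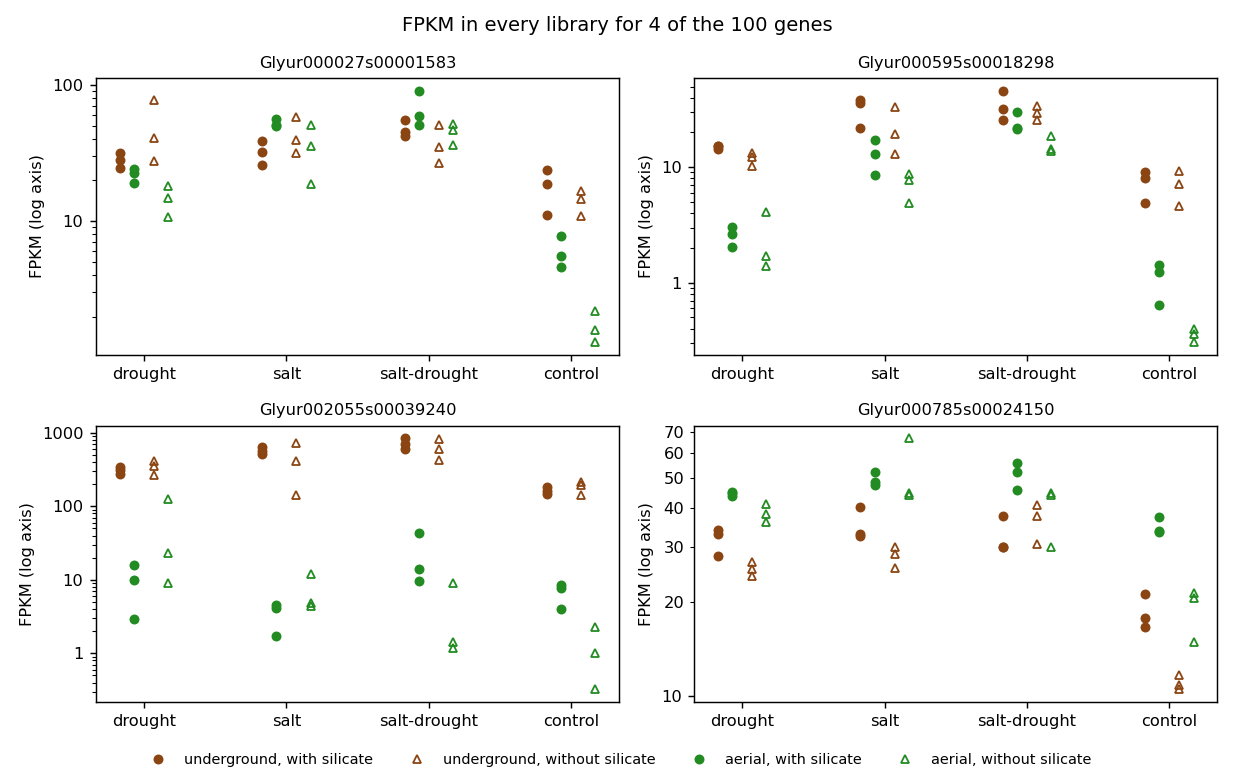
FPKM in every library (log axis) of Glyur000027s00001583, Glyur000595s00018298, Glyur002055s00039240 and Glyur000785s00024150 under drought, salt, salt-drought and control. Brown is underground and green aerial, filled circles are silicate-fed and open triangles are without silicate. In the upper panels aerial controls lie furthest below the other groups, and in the lower left panel underground values lie far above aerial ones.

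The 2 genes called under underground drought were Glyur002055s00039240 (Scaffold02055, 27167 to 28546, plus strand) and Glyur000785s00024150 (Scaffold00785, 17208 to 20094, minus strand). Glyur002055s00039240 was at 314, 271 and 344 FPKM in silicate-fed underground parts under drought, 510, 557 and 632 FPKM under salt and 595, 699 and 846 FPKM under salt-drought, against 164, 148 and 183 FPKM in controls. The conditions apart from salt and salt-drought did not overlap. The limma change was 0.90 under drought (SE 0.16, adjusted p = 0.0325), 1.77 under salt (adjusted p = 0.000179) and 2.10 under salt-drought (adjusted p = 6.59e-05). In aerial parts the gene was at 2.89 to 15.7 FPKM under drought, 1.73 to 4.603 FPKM under salt and 9.70 to 42.9 FPKM under salt-drought, against 4.002 to 8.42 FPKM in silicate-fed controls. Its highest silicate-fed aerial value and its highest aerial value without silicate (127 FPKM, drought library 3) stood in the libraries with the most underground marker RNA. The other aerial drought values without silicate were 9.08 and 22.9 FPKM, and the smallest of its 6 changes in the rule, 0.87, was that of aerial salt-drought.

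Glyur000785s00024150 moved by smaller steps with close replicates. In silicate-fed underground parts it was at 28.1, 32.9 and 34.02 FPKM under drought, 40.4, 33.0 and 32.4 FPKM under salt and 37.8, 30.0 and 30.1 FPKM under salt-drought, against 16.6, 17.8 and 21.2 FPKM in controls. No stressed value overlapped the controls. The limma change was 0.75 under drought (SE 0.13, adjusted p = 0.0349), 0.89 under salt (adjusted p = 0.00211) and 0.78 under salt-drought (adjusted p = 0.00366). In aerial parts it was at 47.4, 52.1 and 48.2 FPKM under salt, against 33.6, 37.3 and 33.8 FPKM in controls, a change of 0.49 (limma adjusted p = 0.0144). The aerial salt call was lost without control library 1 (limma adjusted p = 0.0634) or salt library 3 (0.0546), with only the groups compared (0.0592) and with the libraries without silicate added (0.0953). Under aerial salt-drought the change was 0.53 (limma adjusted p = 0.00339), a call lost in 0 of 12 alternative fits.

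Both underground drought calls were lost in 8 of 12 alternative fits. The limma adjusted p of Glyur002055s00039240 was 0.120, 0.147 and 0.0627 without library 1, 2 or 3 of the silicate-fed controls and 0.0604, 0.0871 and 0.156 without library 1, 2 or 3 of the drought group. For Glyur000785s00024150 it was 0.135, 0.147 and 0.0528 without each of the controls in turn, and 0.141 and 0.160 without drought library 2 or 3. The direction stayed the same in each of these fits. With the libraries without silicate added to the fit, the limma adjusted p of Glyur002055s00039240 was 0.416, and with only the groups compared it was 0.0537. For Glyur000785s00024150 the limma adjusted p was 0.0550 with no filter, 0.0697 with only the groups compared and 0.0832 with the replicate block.

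Further genes rose underground. Glyur000637s00026801 (Scaffold00637, single exon) was at 79.8, 73.9 and 87.5 FPKM under underground salt-drought with silicate, against 12.9, 12.2 and 21.7 FPKM in controls. Its limma change was 2.34 (SE 0.23, adjusted p = 0.000217). Glyur000173s00011831 (Scaffold00173, 6 exons) was at 24.9, 24.8 and 27.7 FPKM, against 9.73, 3.38 and 3.35 FPKM in controls, a limma change of 2.18 (SE 0.38, adjusted p = 0.00405). Glyur003414s00042432 (Scaffold03414, 3 exons) was at 12.2, 13.8 and 8.85 FPKM under underground salt with silicate, against 1.497, 2.12 and 1.67 FPKM in controls, a limma change of 2.17 (SE 0.44, adjusted p = 0.00896). In each of these cases stressed and control values did not overlap, and the call held in all 12 alternative fits.

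Some of the 100 genes were lower under stress than in controls among the silicate-fed libraries. Whether silicate altered their stress response was not tested. Glyur001911s00038495 (Scaffold01911, overlapping another gene) was listed at 0, 2.00 and 0 FPKM in aerial salt with silicate, against 14.8, 15.4 and 16.1 FPKM in controls. Its fitted change was -3.51 (SE 0.77, limma adjusted p = 0.0300), a value that depends on the pseudocount because of the zeros. Without salt library 1 or 3 or control library 1, 2 or 3 the limma adjusted p was 0.0923, 0.105, 0.0972, 0.0813 and 0.0698, and with a pseudocount of 0.1 it was 0.0668. Without silicate its aerial mean was 5.58 FPKM under salt and 2.26 FPKM in controls, so its controls differed as well. The gene is listed at 0 in 10 of the 48 libraries, including 4 of the 6 controls without silicate. It was among 5 genes with a change below 0 in all 6 silicate-fed stress comparisons, and newGene_805 was another. In newGene_805 aerial values were 0.0876 to 12.4 FPKM under the 3 stresses, against 15.9, 18.4 and 4.07 FPKM in silicate-fed controls, so the groups overlapped. Without silicate its aerial mean was 4.82 FPKM in controls, and 10.7, 16.3 and 9.06 FPKM under drought, salt and salt-drought.

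Glyur000249s00015856 (Scaffold00249, 10376 to 11366, minus strand) differed between salt and salt-drought. In silicate-fed aerial parts it was at 375, 382 and 361 FPKM under salt-drought and at 95.5, 111 and 82.8 FPKM under salt, against 203, 148 and 200 FPKM in controls. Salt-drought values lay above, and salt values below, all controls. The limma change was 1.03 under salt-drought (adjusted p = 0.00379) and -0.92 under salt (SE 0.17, adjusted p = 0.0176). Without control library 1 or salt library 3 the limma adjusted p of the salt fall was 0.0748 and 0.0705. With only the groups compared it was 0.0612, and with the libraries without silicate added 0.0553, by limma. Salt-drought exceeded salt by 1.95 (SE 0.17, limma adjusted p = 0.00299). Without silicate its aerial salt values were 159, 65.0 and 138 FPKM, against 50.8, 72.3 and 49.0 FPKM in controls.

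Glyur000182s00014548 and Glyur000044s00005133, which had the highest mean levels without silicate, were not called between stress and control with silicate. Other abundant genes were called. Glyur002055s00039240, at a mean of 206 FPKM, was called higher in each underground stress comparison. Glyur000182s00014548, at a mean of 291 FPKM over the libraries without silicate, was at 540, 458 and 450 FPKM in aerial salt-drought with silicate, against 265, 388 and 438 FPKM in silicate-fed controls and 145, 216 and 216 FPKM in controls without silicate. Glyur000044s00005133, at a mean of 217 FPKM, was at 279, 201 and 230 FPKM, against 297, 330 and 340 FPKM in silicate-fed and 109, 137 and 116 FPKM in other controls. In Glyur000044s00005133 the silicate-fed controls were above the salt-drought libraries. Glyur001184s00030528, first by the rule, was at 101.4, 58.9 and 66.2 FPKM in aerial salt-drought with silicate, against 94.1, 98.8 and 93.8 FPKM in silicate-fed controls. Its 6 silicate-fed comparisons of stress with control were likewise not called. Underground it was called lower under salt-drought than under drought with silicate (limma change -1.18, adjusted p = 0.0305), a call lost in 5 of 12 alternative fits.

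Whether the 2 stresses together moved the genes beyond a single stress was tested in the same fits. In aerial parts 21 genes were higher and 1 lower under salt-drought than under drought, against 3.43 and 4.51% of all genes tested, with a median difference of 0.32. Against salt, 6 were higher and 2 lower, against 1.49 and 2.31%, and the median difference was -0.03. The count against salt was 1 without library 2 and 3 without library 3 of salt-drought, and 3, 10 and 1 without salt library 1, 2 or 3. Over all genes tested it was 44, 29, 102, 325 and 1 in these fits, against 328 in the main fit. Glyur000595s00018298 was 2.83 higher under salt-drought than under drought (SE 0.25, limma adjusted p = 0.000571). Glyur000088s00007712 was 0.95 lower, at 233, 176 and 194 FPKM under salt-drought, against 358, 369 and 435 FPKM under drought (SE 0.17, limma adjusted p = 0.00962).

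Glyur000105s00014211, which overlaps another gene, was at 3.003, 6.69 and 19.7 FPKM under aerial salt-drought with silicate, against 0, 0.917 and 0 FPKM under drought and 0.207, 0 and 0 FPKM under salt. These 3 salt-drought libraries were the only silicate-fed aerial ones in which it reached 1 FPKM, so it passed the filter through them alone. It had to differ, and its values are a description, although it is counted among the 36, 21 and 6 genes called higher in aerial salt-drought. It was at 31.2, 15.8 and 32.8 FPKM in underground salt-drought, and the aerial salt-drought libraries were the silicate-fed aerial libraries with the most underground marker RNA. The part of that RNA in this result was not tested. The 2 aerial genes lower under salt-drought than under salt were Glyur000104s00006025 and Glyur002126s00036417, with limma changes of -1.17 (SE 0.26, adjusted p = 0.0384) and -1.08 (SE 0.23, adjusted p = 0.0330). Without salt-drought library 2 or 3, or without salt library 1 or 3, the limma adjusted p was 0.102, 0.107, 0.110 and 0.146 for Glyur000104s00006025 and 0.105, 0.0880, 0.0983 and 0.113 for Glyur002126s00036417. With only the groups compared, and with the libraries without silicate added, it was 0.107 and 0.0669 for Glyur000104s00006025 and 0.0670 and 0.0581 for Glyur002126s00036417, by limma. For Glyur000104s00006025 it was also 0.0574 with no filter and 0.0583 with the replicate block, by limma, so this call was lost in 8 of 12 alternative fits and the other in 6.

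Underground, 9 genes were higher and 3 lower under salt-drought than under drought with silicate, against 2.19 and 4.09% of all genes tested. The count of higher genes was 5, 2 and 2 without drought library 1, 2 or 3, and 3 without salt-drought library 1 or 3. Over all genes tested it was 298, 241, 154, 183 and 294 in these fits, against 509 in the main fit. Glyur000047s00003994 was lower, at 7.19, 10.01 and 16.3 FPKM under salt-drought, against 65.2, 33.3 and 45.9 FPKM under drought, a limma change of -2.03 (SE 0.35, adjusted p = 0.0105) that held in all 12 alternative fits. It overlaps another gene. Against salt, no gene was called in either direction by limma, among the 100 (0 of 99) or among all genes tested (0% higher and 0% lower). At an unadjusted p under 0.05, 7 of the 100 were higher and 10 lower, and 3728 of all genes passed (16.1%). These counts of 0 depended on single libraries. Without salt-drought library 3, limma called 448 genes higher and 261 lower, with 2 of the 100 lower. Without salt library 3 it called 43 higher and 171 lower, with 1 of the 100 lower. With the libraries without silicate added it called 90 higher and 43 lower, with none of the 100.

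The level in one part was not compared with the other by the rule, and by this measure the 100 genes leaned towards the aerial part. The rule did require a rise in both parts, so each of the 100 was above 0 in both. Of the 25128 genes they are set against, only 20333 passed the filter in each part, so the sets are unlike. In silicate-fed controls 17 genes were called higher and 52 lower underground than in aerial parts, against 36.4 and 27.1% of the 25128 genes tested over both parts. Under drought 15 were higher and 44 lower, against 35.7 and 26.9%. Under salt 13 were higher and 53 lower, against 37.1 and 26.8%. Under salt-drought 11 were higher and 55 lower, against 34.6 and 26.6%. The median difference of the 100 genes was -0.69, -0.47, -0.80 and -0.93 in controls, drought, salt and salt-drought, while that of all genes tested was 0.11 to 0.14. In all 4 conditions alike, 8 genes were called higher and 40 lower underground, against 26.3 and 19.6% of all genes tested. Between the parts 22 genes were called in none of the 4, against 19.3%.

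**Figure D5:**
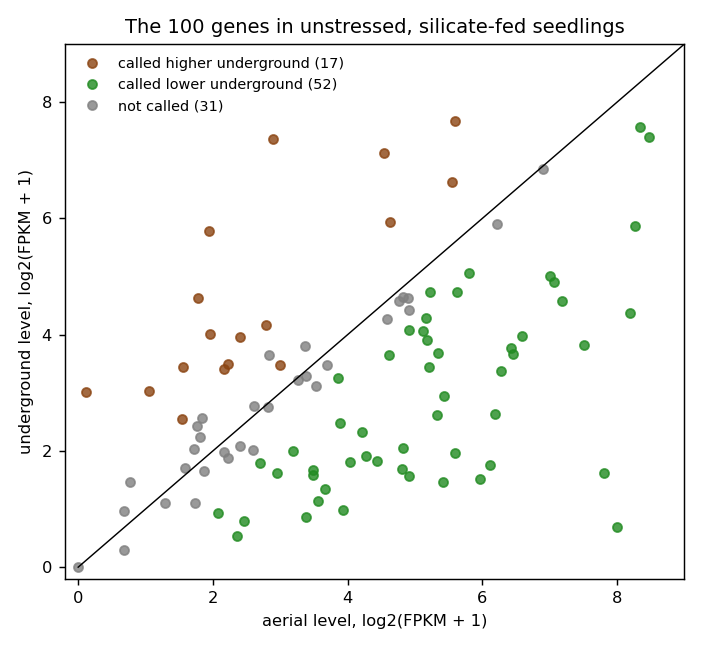
Underground level against aerial level of the 100 genes in silicate-fed controls, each as the mean log2(FPKM + 1) of 3 libraries. Points on the line have equal levels, brown points are the 17 genes called higher underground, green the 52 called lower, and grey those not called. Most points lie below the line.

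The extremes were far apart. Glyur000732s00027540 (Scaffold00732, single exon) was at 0.617, 0.696 and 0.553 FPKM in underground silicate-fed controls, against 391, 228 and 188 FPKM in aerial ones, a limma difference of -7.31 (SE 0.40, adjusted p = 2.22e-11). Under drought with silicate it was at 3.04, 3.39 and 4.74 FPKM underground, against 334, 219 and 442 FPKM in aerial parts. Its underground mean was 1.12% of its aerial mean of the same condition under drought with silicate, and 0.231% in silicate-fed controls. The 4 aerial markers stood at 1.26 to 1.74% of their aerial control level without silicate in those drought libraries and at 0.334 to 0.420% in silicate-fed controls. On the base used for the markers, its aerial control level without silicate, the gene was at 7.62% under drought with silicate and at 1.27% in silicate-fed controls underground. The part of such traces in its underground values was not tested. Without silicate its underground values were 0.837, 0.802 and 1.01 FPKM under drought, against 0.103, 0 and 0.0502 FPKM in controls, so its place in the rule rests on such low values.

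Glyur000088s00007712 (Scaffold00088, 129699 to 130669, minus strand) was the next most aerial gene, at 3.01, 1.48 and 1.93 FPKM in underground silicate-fed controls, against 207, 190 and 283 FPKM in aerial ones. The limma difference was -6.19 (SE 0.43, adjusted p = 4.10e-10). At the other end, Glyur002055s00039240 was 4.47 higher underground in silicate-fed controls (SE 0.47, limma adjusted p = 9.57e-08) and 7.04 higher under salt (limma adjusted p = 2.24e-10). Glyur000080s00008676 (Scaffold00080, 6 exons) was at 64.3, 55.9 and 44.1 FPKM in underground silicate-fed controls, against 2.98, 2.08 and 3.60 FPKM in aerial ones, 3.85 higher (SE 0.29, limma adjusted p = 1.13e-09). Under salt-drought that difference was 2.68 (limma adjusted p = 1.83e-07), when its aerial values were 5.56, 9.52 and 7.12 FPKM. Those aerial libraries held underground markers at 1.09, 13.4 and 1.71% of their underground control level. The part of that RNA in these values was not tested.

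Whether the size of a stress response differed between the parts was tested directly in silicate-fed seedlings. Few of the 100 genes differed. Under drought none was called by limma, against 0.00796% of all genes, with 9 genes at an unadjusted p under 0.05, where 5.58% of all genes passed. Under salt 3 were called, against 2.68% of all genes, and under salt-drought 4 were called, against 3.7%, so the shares were close to those of all genes. Without library 1 of the underground silicate-fed controls or library 1 of aerial salt, 1 gene was called under salt. In these fits 171 and 195 of all genes had a higher response underground and 166 and 155 a lower one. The main salt fit called 357 higher and 316 lower. The salt-drought count was 2 without library 1 of the underground silicate-fed controls and 8 without library 3 of underground salt-drought. Over all genes 218 and 187 were higher and 357 and 391 lower in these fits. The main salt-drought fit called 354 higher and 575 lower.

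Among these, Glyur002029s00034004 (Scaffold02029, 10 exons) had a larger salt response in aerial parts. It was at 27.2, 32.3 and 23.5 FPKM in underground salt with silicate, against 28.0, 22.9 and 26.1 FPKM in underground silicate-fed controls. In aerial parts it was at 245, 121 and 143 FPKM under salt, against 47.1, 70.1 and 34.1 FPKM in silicate-fed controls. The response was 1.63 smaller underground (SE 0.37, limma adjusted p = 0.0245), and the limma adjusted p was 0.0570, 0.0567 and 0.0594 without underground control library 1, aerial control library 3 or aerial salt library 1. With only the groups compared it was 0.0616, and with the libraries without silicate added 0.0900, by limma. Glyur000023s00004945 (Scaffold00023, single exon, overlapping another gene) was at 154, 106 and 204 FPKM in underground salt-drought with silicate, against 104, 164 and 157 FPKM in underground controls. In aerial parts it was at 117, 128 and 113 FPKM under salt-drought, against 12.2, 24.9 and 35.5 FPKM in controls. Its response was 2.27 smaller underground (SE 0.53, limma adjusted p = 0.0233), with an adjusted p of 0.0606 in limma without underground control library 2.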

How the data were processed

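The FPKM values were deposited by the authors. The tools named for them in the submitters' processing notes are TopHat2 and Cufflinks, and tool versions, build and use of strand are not given in the sources used here. Per the labels, there were nanopore full-length cDNA libraries and Illumina libraries, without a statement of which gave the FPKM values. Positions are 1-based coordinates of the deposited annotation. Of low values, 40.1 to 60.7% lay within 0.1 of a whole number of fragments, where 20% of evenly spread values would. The strongest step among low values was taken as a fraction of a fragment. A value can therefore lie on that step without being a whole number, and the 20% does not allow for choosing the strongest step. Whole counts were not recovered, and no count model was used.

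Values were analysed as log2(FPKM + 1), which understates changes of low genes, with limma 3.58.1 in R 4.3.3 (trend and robust options, group means) on 12 silicate-fed libraries per part or 24 for both, with adjustment over all genes tested. The method was checked on simulated data. Python 3.11.15 was used for the rule and counts. The 100 genes, the tests and the lists were chosen with earlier results of these data known. Named genes were those first and last by the rule and highest in level. Per silicate-fed comparison, at most 2 called genes with the largest rise and 2 with the largest fall were added, with a mean of at least 5 FPKM in a group and no overlap between groups. Genes were also named for the largest part differences, for lying next to each other, and for falling in most silicate-fed comparisons, with ties settled by the summed change. A pair of underground genes called higher and a further one called lower under salt-drought against drought met these conditions and are only counted. Alternatives were a pseudocount of 0.1, no filter, rescaling, a fit of only the groups compared, a fit with the libraries without silicate, a replicate block, and leaving out each library.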

Additional observations from a re-analysis of the deposited data

Results flagged for a closer look

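In 7 cases a gene among the 100 differed between the parts in its response to stress with silicate, by the limma test of that difference. These are 3 genes under salt, against 2.68% of all genes tested, and 4 under salt-drought, against 3.7%, so the shares are near those of all genes. Glyur000027s00001583 responded less underground than in aerial parts under salt (difference -2.09, adjusted p = 0.00359) and under salt-drought (-1.84, adjusted p = 0.00625), by limma. The response of Glyur002029s00034004 to salt (-1.63), and those of Glyur000023s00004945 (-2.27) and Glyur000595s00018298 (-1.52) to salt-drought, were also smaller underground. The calls of Glyur000027s00001583 held in all 18 alternative fits, while those of Glyur002029s00034004, Glyur000023s00004945 and Glyur000595s00018298 were lost in 5, 1 and 8 of 18. For Glyur000595s00018298 the limma adjusted p was 0.0598 and 0.0542 without library 1 of the aerial controls or of aerial salt-drought, 0.0701 and 0.0657 without underground control library 1 or 3, and 0.0570 and 0.0585 without underground salt-drought library 1 or 2. It was 0.0595 with only the groups compared and 0.0515 with the replicate block, by limma.

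In 2 genes the response was larger underground. Glyur002055s00039240 under salt differed by 2.57 (SE 0.66, limma adjusted p = 0.0433), since it rose underground by 1.77 and stood at 1.73 to 4.603 FPKM in aerial salt, against 4.002 to 8.42 FPKM in aerial silicate-fed controls. This call was lost in 13 of 18 alternative fits. The limma adjusted p was 0.0637 with a pseudocount of 0.1, 0.0575 with no filter and 0.130 with the libraries without silicate added. It was 0.0603 to 0.103 in limma without any 1 of 10 of the 12 libraries compared, all but library 1 of the aerial controls and library 2 of aerial salt. Glyur002126s00036417 (Scaffold02126) under salt-drought differed by 1.72 (SE 0.41, limma adjusted p = 0.0246), a call lost in 6 of 18 alternative fits. The limma adjusted p was 0.0504 with only the groups compared, 0.0668 without underground control library 1, 0.0664 without aerial control library 3 and 0.0617 without underground salt-drought library 1. Without aerial salt-drought library 2 or 3 it was 0.0562 and 0.0536 in limma. It was at 17.05, 10.9 and 8.83 FPKM in underground salt-drought, against 2.33, 3.79 and 3.46 FPKM in underground silicate-fed controls. In aerial parts it was at 32.6, 20.6 and 24.96 FPKM, against 25, 20.9 and 39.0 FPKM.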

How the results depend on the processing

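Of 248 recomputed counts, 204 stayed within 1.5 times the reported one. Among settings other than leaving out a library, the 1 aerial drought gene became 0 with no filter, with only the groups compared in the fit and with the replicate block. The 2 underground drought genes became 1 with no filter and with the block. With only the groups compared, aerial salt gave 11, aerial salt-drought against salt 1, underground salt-drought 15 and the salt-drought response difference 2. Over all genes, that setting called 102, 29 and 667 higher in the first 3 of these, against 446, 328 and 1108. With the libraries without silicate added, aerial salt-drought against salt gave 3 and the salt response difference 1. With no filter, underground salt-drought against drought gave 3. The cause was not tested.

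Leaving out 1 library gave 10 to 22 higher genes for aerial salt, 26 to 33 for aerial salt-drought, 0 to 1 for aerial drought, 15 to 18 for aerial salt-drought against drought and 1 to 10 against salt. Underground it gave 16 to 24 for salt, 13 to 25 for salt-drought, 0 to 2 for drought and 2 to 8 for salt-drought against drought. Response differences ranged from 1 to 3 for salt and from 2 to 8 for salt-drought. Over all genes, leaving out 1 library gave 118 to 365 higher for aerial salt and 689 to 1155 for aerial salt-drought. The main fits gave 446 and 1288. Underground these counts were 802 to 1597 for salt and 554 to 875 for salt-drought, against 1880 and 1108.

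Same-numbered libraries had correlations of deviations from -0.26 to 0.19, and none of the 14 comparisons had every pair above 0.1. All 3 were above 0 in aerial salt (0.085, 0.063 and 0.064) and in underground salt-drought against salt (0.063, 0.128 and 0.066). At least 1 was below 0 in every other comparison. With 3 libraries per group such values are coarse, and whether same-numbered libraries shared a batch was not tested. With the replicate block, aerial salt called 19, aerial salt-drought 29, underground salt 27 and underground salt-drought 22 genes. The main fits called 24, 36, 26 and 23. Over all genes the block gave 290, 953, 1885 and 1097 higher calls, against 446, 1288, 1880 and 1108 in the main fits. For named genes, 477 of 552 recomputed values stayed on the same side of the threshold, 75 lost the call and 0 changed direction. Depth limits genes near 1 FPKM most, and zeros limit the 17 genes that have them.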
